A study of Mus musculus with 2 samples.

Results

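The non-alveolar macrophages of the mouse lung were examined in 2 single-cell RNA sequencing libraries, 1 from lungs of mice on a control diet (CD) and 1 from lungs of mice on a high fat diet (HFD). Members were all cells that the authors' annotation names macrophages and not alveolar macrophages. They were 281 of 18397 cells, with 128 of 8793 cells in CD and 153 of 9604 cells in HFD. The mice of both groups were female BALB/c animals that were 4 weeks old when the diets began and 20 weeks old after 16 weeks of feeding. In CD, fat gave 13%, protein 27% and carbohydrate 60% of the energy. In HFD, fat from lard gave 60% and protein and carbohydrate 20% each. The sources used here do not give the number of mice behind a library, and each library is counted as 1 sample. Differences between animals therefore could not be estimated, no test was possible and no p-value was computed. Every interval below covers counting error over cells only. Each is a 95% interval, except that a ratio of medians is given the outer bounds of the 95% intervals of both medians.

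The lung holds more than one kind of resident macrophage. Alveolar macrophages lie on the air side of the alveolus, where they take up and break down surfactant lipids, whereas interstitial macrophages lie within the tissue, around vessels, airways and nerves. Interstitial macrophages are known for strong expression of C1qa, C1qb and C1qc, which encode the chains of C1q, the recognition molecule of the classical complement pathway. C1q binds antibody complexes and dying cells and marks them for uptake. Monocytes, the blood-borne phagocytes that can give rise to tissue macrophages, and dendritic cells (DCs), which present antigen to T cells, are the other mononuclear phagocytes described below.

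C1qa, C1qb and C1qc are known markers of such cells. In the GRCm38 assembly they lie next to each other on the minus strand of chromosome 4, C1qb (ENSMUSG00000036905) at 136880129 to 136886187, C1qc (ENSMUSG00000036896) at 136889804 to 136893065 and C1qa (ENSMUSG00000036887) at 136895917 to 136898803. The 3 gene bodies together span 18675 bases. No expression values of single genes were analysed here, so the name of the cells rests on the authors' annotation and could not be checked against marker levels. What was at hand for each gene is a flag for the genes whose variation across all cells of both libraries was used to build the clusters. The flag was carried by 1000 of 19278 genes, or 5.19%. It says that a gene varied between cells, not in which cells it was high or whether it differed between diets.

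All 3 C1q genes carried the flag. Of 14 other genes known from interstitial macrophages, 13 carried it. They included Csf1r, the receptor for the main macrophage growth factor, and Apoe, a lipid carrier. The scavenger receptors Mrc1 and Cd163, the hyaluronan receptor Lyve1, the folate receptor Folr2 and the antigen presentation genes H2-Ab1 and Cd74 were also flagged. The exception was Adgre1, which encodes a surface protein common to tissue macrophages. Lyve1 and Folr2 on the one hand and H2-Ab1 and Cd74 on the other are used to tell subsets of interstitial macrophages apart, and all of them were among the genes that shaped the clustering.

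Among 9 alveolar macrophage genes, 7 were flagged, among them the scavenger receptor Marco and the fatty acid binding protein Fabp4. The lectin Siglecf and the transcription factor Pparg were not. Of 8 monocyte genes 7 were flagged, with Ace as the exception, and of 6 DC genes only Cd209a and Ccr7 were. Of 9 genes for lipid handling in macrophages, 5 carried the flag. These were Lpl, which releases fatty acids from triglycerides, Fabp5, which binds fatty acids in the cell, Abcg1, which exports cholesterol, and the lipid-associated macrophage genes Trem2 and Gpnmb. Cd36, a fatty acid uptake receptor, Plin2, a lipid droplet coat protein, Abca1, a cholesterol exporter, and Lipa, the lysosomal lipase, were not among the flagged genes.

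All 281 cells belonged to fine cluster 31 of 51. Because the authors named cells cluster by cluster, this is part of how the members were chosen and not a result. On the UMAP, a map in which cells of similar expression lie close together and whose axes have no unit, they were set apart from every other cell. The shortest distance from a macrophage to a cell of another name was 0.321, whereas the largest distance from a macrophage to its nearest fellow macrophage was 0.0113. The nearest cells of another name were endothelial cells for 154 macrophages and T cells for 127. The centre of the macrophages lay 0.546 from that of the monocytes, 0.669 from that of the DCs and 0.763 from that of the alveolar macrophages. Distances between separate groups on such a map depend on its settings and are not a measure of relatedness.

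Within the macrophages, cells of both diets were mixed on the map. HFD cells made up 54.4% of all macrophages. Among the 10 nearest macrophage neighbours of each cell, the mean share of HFD cells was 57.1% around CD cells and 54.8% around HFD cells.

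**Figure D1:**
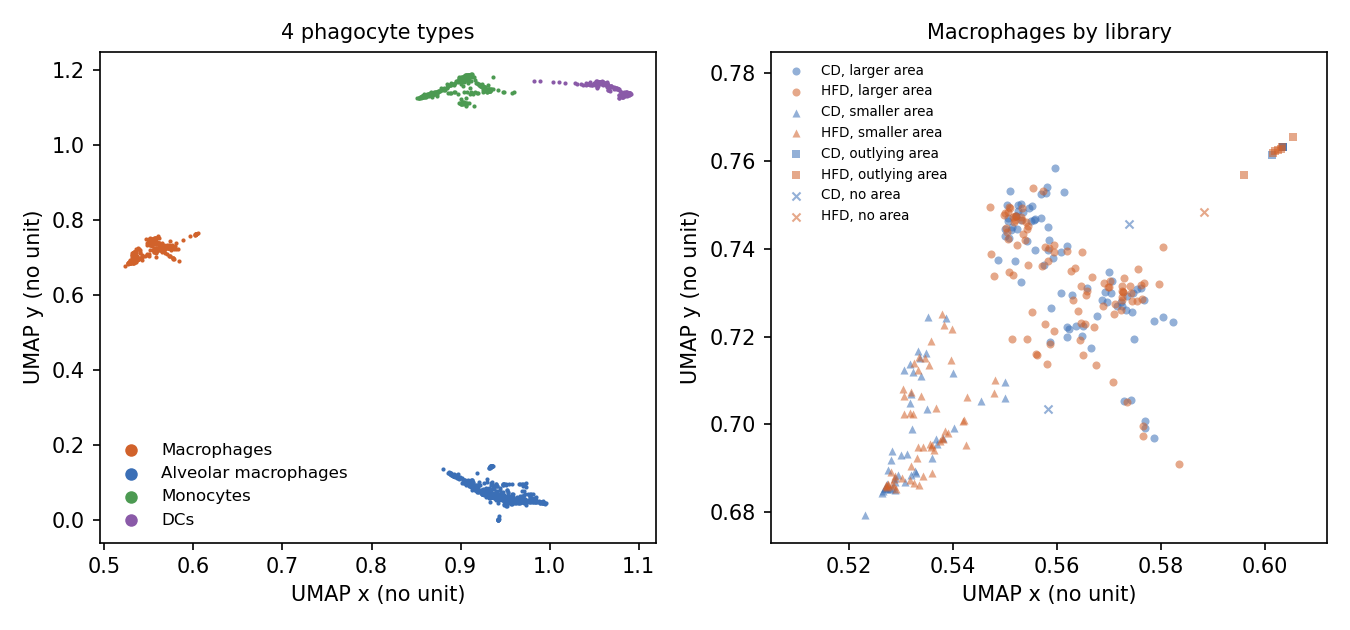
UMAP positions (both axes without unit) of 4 phagocyte types (left, 1 point per cell, colour by cell type) and of the 281 macrophages alone (right, blue for CD, orange for HFD, marker shape by map area). The macrophages lie far from alveolar macrophages, monocytes and DCs, and cells of both libraries are found in each of the 3 areas.

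The map showed 3 areas of macrophages, which were separated by linking cells closer than 0.008 to each other after the map had been seen. The larger area held 169 cells, the smaller area 98 cells and an outlying area 11 cells, and 3 cells fell in none. Because the areas were drawn from the expression map itself, they are a description and carry no test, and no subset name was given to them. The larger area held 78 CD cells, or 60.9% of CD macrophages (51.9 to 69.4), and 91 HFD cells, or 59.5% of HFD macrophages (51.3 to 67.3). The smaller area held 44 CD cells, 34.4% (26.2 to 43.3), and 54 HFD cells, 35.3% (27.7 to 43.4). The outlying area held 4 CD cells, 3.13% (0.858 to 7.81), and 7 HFD cells, 4.58% (1.86 to 9.20). The intervals of the libraries overlapped for each area, so no area share was separate beyond counting error over cells. With 1 library per diet, a shift between areas with diet could not be assessed.

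The areas differed in depth and in the number of detected genes. In CD the median cell of the smaller area had 6959 unique molecular identifiers (UMIs, each standing for 1 captured transcript; 6295 to 8148), compared to 5306 (4799 to 5788) in the larger area. In HFD these medians were 7798 (6380 to 8515) and 6052 (4999 to 6848). Detected genes followed the same order. The smaller area had a median of 2299.5 genes (2092 to 2622) with CD and 2370 (2124 to 2603) with HFD. The larger area had 1701.5 (1545 to 1801) and 1856 (1611 to 2117). In both libraries the intervals of gene number in these areas were separate, whereas those of UMIs were separate in CD and overlapped in HFD. The 11 cells of the outlying area had the highest median of the areas, 15187 UMIs, with a range from 6116 to 28502. The deepest single macrophage, with 35120 UMIs, lay in the smaller area. Whether cells captured together in 1 droplet contribute to that area was not tested, and no removal of such doublets is stated for these data.

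The share of macrophages among all cells was 1.46% (1.22 to 1.73) with CD and 1.59% (1.35 to 1.86) with HFD. This is a difference of 0.137 percentage points and a ratio of HFD to CD of 1.09 (0.860 to 1.40). The intervals of the libraries overlapped, so the shares were not separate beyond counting error over cells. With 1 library per diet, an effect of diet on the share could not be assessed. For comparison, the intervals did not overlap for 5 of 17 cell types, or 29.4%, and for 13 of 51 fine clusters, or 25.5%. By share, macrophages ranked 13 of 17 cell types in both libraries, between the monocytes and the DCs. Their ratio ranked 7 of 17, close to the middle.

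The shares of all cells are tied to each other, since a rise of 1 type lowers all others, and the direction of the small difference depended on what it was set against. Among the 10 immune types, which had 3743 cells in CD and 3756 in HFD, macrophages were 3.42% (2.86 to 4.05) and 4.07% (3.46 to 4.76), a ratio of 1.19 (0.936 to 1.52). Among the 4 mononuclear phagocyte types, with 666 and 690 cells, they were 19.2% (16.3 to 22.4) and 22.2% (19.1 to 25.5), a ratio of 1.15 (0.906 to 1.47). When endothelial, B and T cells, the most numerous types with a lower share in HFD, were left out of the total, the ratio was 0.953. In each case the interval of the ratio contained 1.

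**Figure D2:**
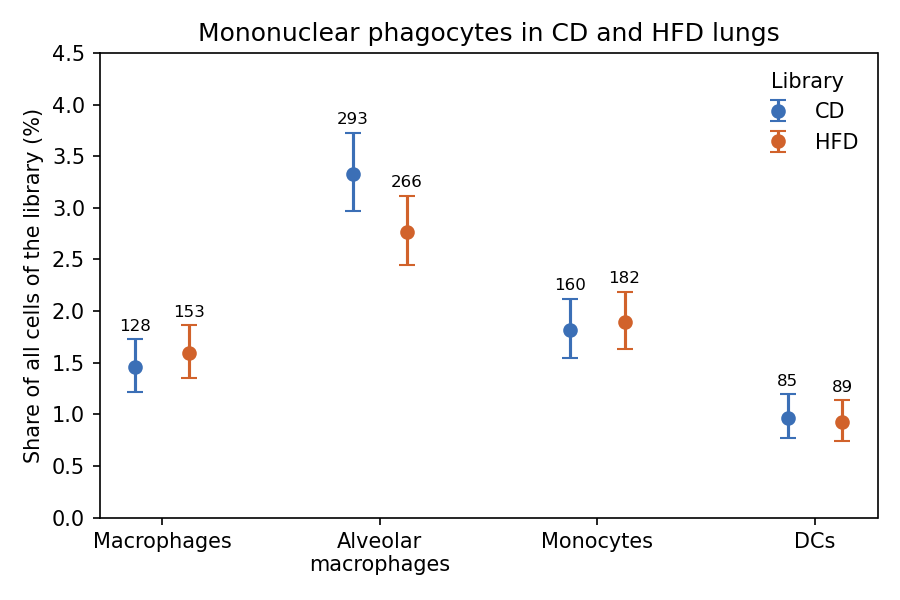
Percent of all cells of each library (y axis) for the 4 mononuclear phagocyte types in CD and HFD, with exact 95% binomial intervals as error bars that cover counting error only and the number of cells above each bar. Macrophages were 1.46% and 1.59% with overlapping bars, and alveolar macrophages 3.33% and 2.77%.

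Next, macrophages were set against alveolar macrophages. The CD library held 293 alveolar macrophages, 3.33% of cells (2.97 to 3.73), and the HFD library 266, 2.77% (2.45 to 3.12), a ratio of 0.831 (0.701 to 0.985). The intervals of the 2 shares overlapped, while that of the ratio lay below 1. By this looser rule the ratio was also below 1 for B cells, 0.837 (0.761 to 0.920), and endothelial cells, 0.900 (0.854 to 0.948). It was above 1 for alveolar type 1 cells, alveolar type 2 cells and fibroblasts. For each alveolar macrophage, 0.437 macrophages were found with CD and 0.575 with HFD. The ratio of these values was 1.32 (0.978 to 1.77), with a lower bound just under 1. It remained above 1 under each of the 6 other filters on cells that were tried, from 1.24 with at most 10% mitochondrial UMIs to 1.38 with at least 3000 UMIs. The interval lay above 1 with at least 2000 UMIs (1.37, 1.01 to 1.87) and, by a narrow margin, with at least 3000 UMIs (1.38, 1.002 to 1.89), and it contained 1 under the other 4 filters.

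Both macrophage types together numbered 421 cells in CD, 4.79% of the library (4.35 to 5.26), and 419 in HFD, 4.36% (3.96 to 4.79). The ratio was 0.911 (0.794 to 1.05). Non-alveolar cells were 30.4% (26.0 to 35.0) of these macrophages in CD and 36.5% (31.9 to 41.3) in HFD. The intervals overlapped. In such shares, more cells of one type and fewer of the other cannot be told apart.

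Against monocytes the numbers of macrophages were nearly level. Monocytes were 160 cells in CD and 182 in HFD, and the number of macrophages per monocyte was 0.800 with CD and 0.841 with HFD. The ratio was 1.05 (0.756 to 1.46). Per DC, 1.51 macrophages were found with CD and 1.72 with HFD, which is a ratio of 1.14 (0.768 to 1.70). Over the 16 other cell types, the number of macrophages per cell was higher in HFD for 10 and lower for 6. The interval of the ratio left out 1 for 3 of them. Macrophages were fewer per alveolar type 1 cell (0.662, 0.487 to 0.900) and per alveolar type 2 cell (0.754, 0.573 to 0.994), the thin gas exchange cells and the surfactant-producing cells of the alveolar epithelium, whose shares were higher in HFD. They were more numerous per B cell (1.31, 1.01 to 1.70), a type whose share was lower in HFD.

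Macrophages carried 837845 UMIs in CD and 1155910 in HFD, 1.97% and 2.28% of all UMIs in the respective library. In CD the UMIs of a macrophage ranged from 1051 to 21867, and in HFD from 1100 to 35120. The median was 6074 (5492 to 6401) with CD and 6714 (6052 to 7496) with HFD. The ratio was 1.11 (0.945 to 1.36), and the intervals overlapped. The middle of the distribution lay between 4589.5 and 7924.25 UMIs in CD and between 4797 and 8687 in HFD, taken from the 25th to the 75th percentile. Median UMIs were higher in HFD for 14 of 17 cell types with a median type ratio of 1.13, and the intervals did not overlap for 7 types, or 41.2%. The difference in macrophages was thus about the size seen across types.

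At the upper end of the distribution the values were higher in HFD, but the intervals overlapped. At the 90th percentile macrophages had 10543.9 UMIs in CD and 13618.2 in HFD. Cells with at least 16000 UMIs numbered 3 in CD, 2.34% (0.486 to 6.70), and 10 in HFD, 6.54% (3.18 to 11.7). Among alveolar macrophages they were 14.0% (10.2 to 18.5) with CD and 33.8% (28.2 to 39.9) with HFD, and among all cells 2.65% (2.32 to 3.01) and 4.14% (3.75 to 4.56). The intervals were separate for both of these. Among monocytes they were 1.88% and 1.65%, and among DCs 4.71% and 3.37%, with overlapping intervals. At the lower end, 8 CD macrophages (6.25%) and 9 HFD macrophages (5.88%) had fewer than 2000 UMIs.

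Macrophages were shallower than alveolar macrophages in both libraries. Their median UMI number was 0.560 times (0.479 to 0.622) that of alveolar macrophages in CD and 0.498 times (0.418 to 0.600) in HFD, where alveolar macrophages had medians of 10841 and 13483 UMIs. They were close to monocytes, with a ratio of 1.20 (1.02 to 1.38) in CD and 1.06 (0.907 to 1.24) in HFD. In the number of detected genes, macrophages reached 0.571 times the alveolar median in each library.

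**Figure D3:**
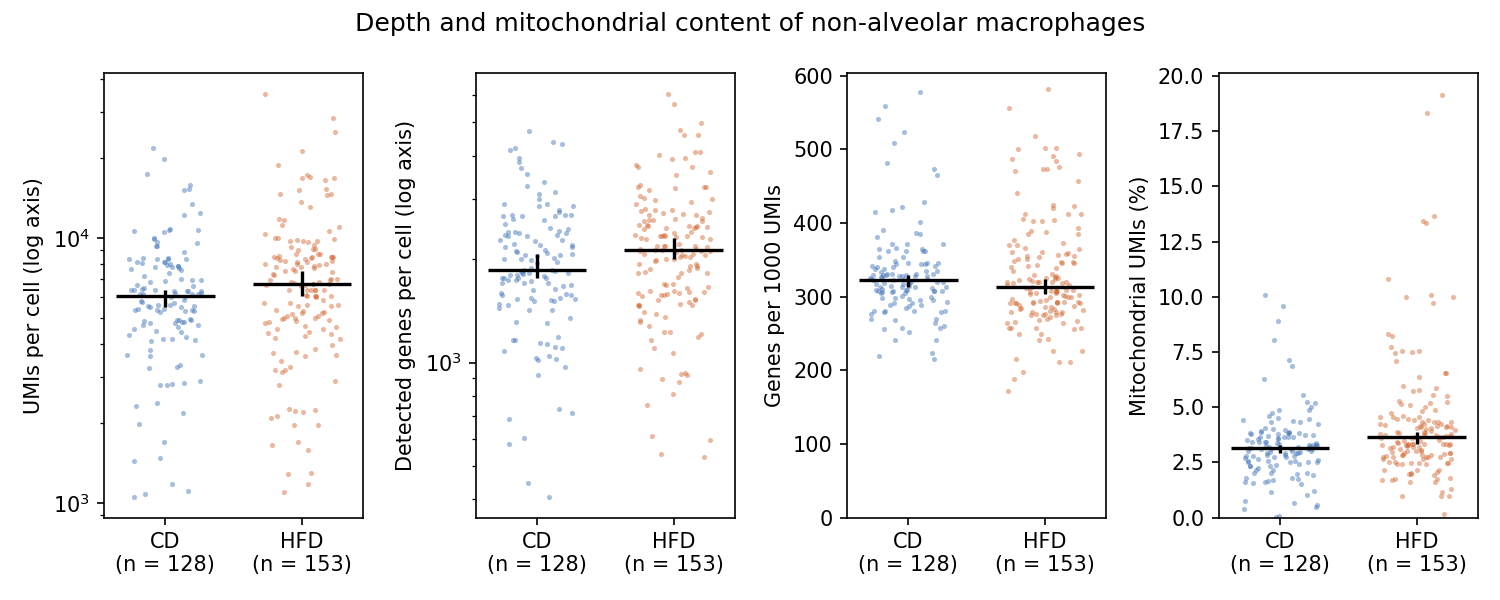
Values of single macrophages in CD and HFD for UMIs per cell, genes per cell, genes per 1000 UMIs and mitochondrial percent of UMIs, 1 point per cell, with the first 2 measures on log axes, and with the median of each library (horizontal line) and its 95% interval (vertical line). The CD and HFD cells overlap widely in each measure, and the intervals of the medians are separate only for mitochondrial percent (3.14% and 3.64%).

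The median macrophage of the CD library had 1863 detected genes (1766 to 2063) and that of the HFD library 2118 (1995 to 2298), which is a ratio of 1.14 (0.967 to 1.30). The range was 405 to 4707 genes in CD and 530 to 6058 in HFD. As for UMIs, the intervals overlapped in macrophages and did not overlap in 41.2% of cell types. Detected genes rise with UMIs, with Spearman correlations across cells of 0.970 in CD and 0.956 in HFD. Both numbers come from the same captured molecules of 1 library each, so this is a description.

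Genes per 1000 UMIs, a measure of how widely the captured transcripts are spread over genes, had a median of 323 (313 to 329) in CD and 313 (303 to 324) in HFD. The ratio was 0.971 (0.921 to 1.04) and the intervals overlapped. They did not overlap in 41.2% of cell types, and the measure was lower in HFD for 14 of 17 types. It falls with depth, with Spearman correlations to UMIs of -0.668 across CD macrophages and -0.837 across HFD macrophages. It was therefore compared again within windows of UMIs, which narrow the range of depth without making it equal.

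Between 4000 and 8000 UMIs, a window that held 74 CD and 71 HFD macrophages, the median was 323 genes per 1000 UMIs in both libraries. Between 8000 and 16000 UMIs, with 28 and 44 cells, it was 294 (279 to 314) in CD and 284 (277 to 293) in HFD. Between 2000 and 4000 UMIs, with only 15 and 19 cells, it was 362 and 420. The direction thus differed between windows, the intervals overlapped in each, and the libraries were not separate within a window. Weighted equally, the 3 windows gave a ratio of 1.05, and without the thinly filled lowest window 0.983.

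The other phagocytes were set beside macrophages in the same windows. Between 4000 and 8000 UMIs, CD medians of depth were 5769 UMIs for macrophages, 5826 for alveolar macrophages, 5384 for monocytes and 6372.5 for DCs. In this window the alveolar macrophages had 369 genes per 1000 UMIs (360 to 380; 44 cells), monocytes 348 (335 to 355; 91 cells), macrophages 323 and DCs 290 (24 cells). In HFD the same window gave 356 (321 to 376; 18 cells), 328, 323 and 283, at median depths of 6209.5, 6315.5, 6052 and 6623.5 UMIs. Monocytes were thus shallower and DCs deeper than macrophages in CD, and the part of depth in these differences was not tested. Between 8000 and 16000 UMIs, alveolar macrophages were deeper than macrophages, with medians of 11659 and 9648.5 UMIs in CD, so their values of 293 and 294 genes per 1000 UMIs are not at like depth. DCs, with a median of 9841 UMIs in CD, had 254 (241 to 260) in that window.

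**Figure D4:**
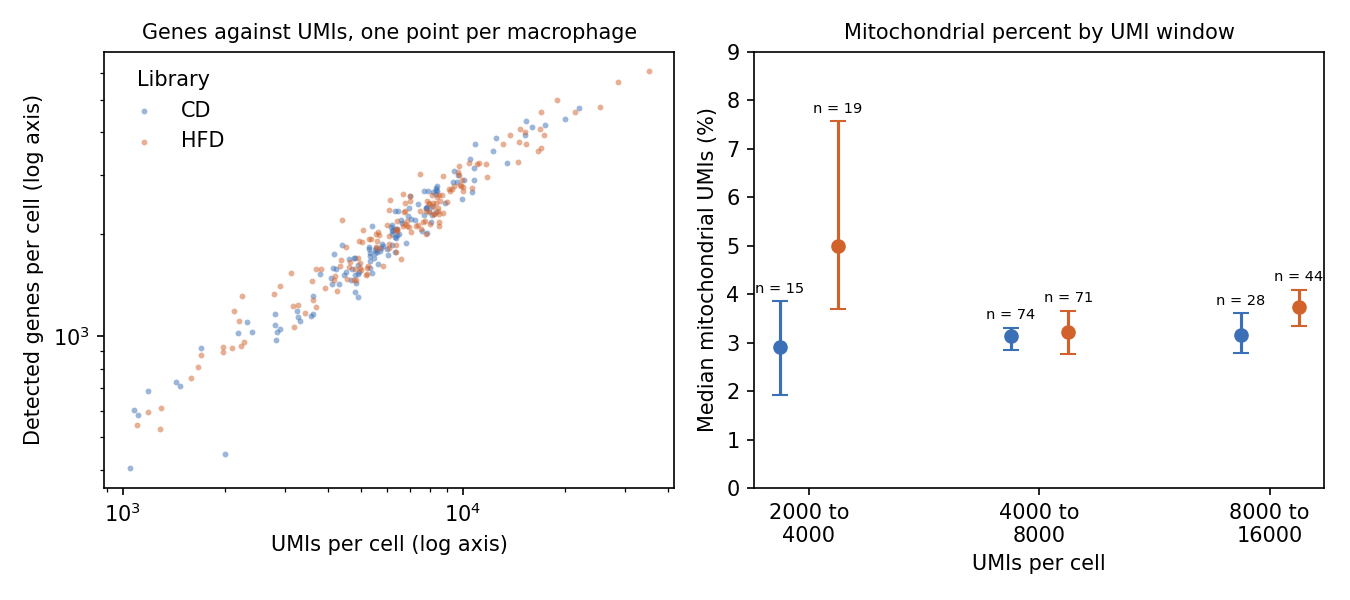
Detected genes against UMIs for each macrophage (left, both axes logarithmic, 1 point per cell) and median mitochondrial percent within windows of UMIs per cell (right, bars for 95% order-statistic intervals, n for cells), with CD in blue and HFD in orange. On the left the cells of both libraries follow the same course, and on the right the libraries are level between 4000 and 8000 UMIs (3.13% and 3.21%) while the bars overlap in each of the 3 windows.

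The mitochondrial percent, the share of a cell's UMIs from protein-coding genes of the mitochondrial genome, was the only one of the 4 measures per cell whose intervals were separate in macrophages. This share is used as a sign of damaged cells, which lose cytoplasmic RNA first, and it also varies with the mitochondrial content of a cell type. Its median was 3.14% (2.93 to 3.31) with CD and 3.64% (3.33 to 3.90) with HFD. The ratio was 1.16 (1.01 to 1.33). The intervals were separate for 5 of 17 cell types, or 29.4%, macrophages included, and the percent was higher in HFD for 13 of 17 types. Over all cells of the libraries, the medians were 3.28% and 3.49%, a ratio of 1.06. The ratio of macrophages ranked 4 of 17. Among all cells kept by the authors, the highest mitochondrial percent was 19.9% in both libraries. With the limit lowered to 10% mitochondrial UMIs, the ratio of macrophages was 1.11 (0.996 to 1.30), and the intervals of the medians then overlapped.

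The direction was the same along the whole distribution. The mitochondrial percent of HFD macrophages was above that of CD macrophages at each of 7 percentiles compared, from 1.67% and 0.834% at the 5th to 9.97% and 6.00% at the 95th. The intervals were separate at the 50th and the 75th percentile only, where the latter was 3.79% in CD and 4.57% in HFD. The highest single value was 10.1% in CD and 19.2% in HFD, and the lowest was 0.0208% and 0.182%. In absolute terms, the median macrophage had 179.5 mitochondrial UMIs (161 to 202) with CD and 222 (195 to 251) with HFD, with a ratio of 1.24 (0.965 to 1.56). UMIs of other genes were 5877.5 and 6462, a ratio of 1.10 (0.937 to 1.36). The intervals of both ratios contained 1.

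Cells with a high mitochondrial percent were few. More than 10% was found in 1 of 128 CD macrophages, 0.781% (0.0198 to 4.28), and in 7 of 153 HFD macrophages, 4.58% (1.86 to 9.20). More than 5%, a limit chosen after the data had been seen, was found in 11 CD cells, 8.59% (4.37 to 14.9), and in 32 HFD cells, 20.9% (14.8 to 28.2). These intervals overlapped by a narrow margin. Among all cells of the libraries, 2.49% (2.18 to 2.84) with CD and 4.15% (3.76 to 4.57) with HFD were above 10%, and 18.0% (17.2 to 18.8) and 23.3% (22.5 to 24.2) were above 5%, with separate intervals for both limits. The cells above 5% were shallower, with median UMIs of 4416 in CD and 3672.5 in HFD, compared to 6147 and 6853 in the others. The 7 HFD cells above 10% ranged from 1185 to 14525 UMIs with a median of 6714, and 2 of them had fewer than 2000.

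Across all macrophages, by contrast, UMIs and mitochondrial percent were almost unrelated, with Spearman correlations of 0.00249 in CD and -0.116 in HFD. Between 4000 and 8000 UMIs the medians were 3.13% (2.84 to 3.31) with CD and 3.21% (2.76 to 3.66) with HFD, with a ratio of 1.03. Between 8000 and 16000 UMIs they were 3.15% (2.79 to 3.61) and 3.74% (3.35 to 4.09), a ratio of 1.19. The largest step was in the window from 2000 to 4000 UMIs, with 2.92% (1.93 to 3.86) and 4.99% (3.70 to 7.56), a ratio of 1.71 that rests on 15 and 19 cells. In the window that held most macrophages, the diets were thus nearly level, and the intervals overlapped in each window. By map area, the medians were 3.14% and 3.69% in the larger area and 3.14% and 3.34% in the smaller one.

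In the other phagocytes the medians of the libraries had overlapping intervals. The mitochondrial percent of alveolar macrophages was 4.40% (4.13 to 4.59) with CD and 4.19% (3.97 to 4.42) with HFD, with a ratio of 0.953 (0.866 to 1.07). In monocytes it was 2.32% in both libraries, a ratio of 1.00 (0.902 to 1.14), and in DCs 2.73% (2.37 to 2.99) and 2.40% (2.00 to 2.59), a ratio of 0.878 (0.669 to 1.10). Whether these ratios differ from that of macrophages was not tested. The direction in alveolar macrophages differed between windows. Their median was 0.703% (0.170 to 2.12) with CD and 0.938% (0.655 to 1.84) with HFD between 1000 and 2000 UMIs, in 16 and 24 cells. Between 2000 and 4000 UMIs, with 25 and 19 cells, it was 3.73% (2.10 to 7.10) and 0.541% (0.0990 to 2.17), whereas that of macrophages in this window was 2.92% and 4.99%. It was 5.22% (4.40 to 6.28) with CD and 3.03% (2.03 to 4.24) with HFD between 4000 and 8000 UMIs, where 44 and 18 cells were found and the intervals were separate. It was 4.48% (4.28 to 4.80) and 4.67% (4.42 to 4.998) between 8000 and 16000 UMIs, with 167 and 115 cells, and 3.98% (3.61 to 4.64) and 4.22% (4.00 to 4.53) between 16000 and 32000 UMIs, with 40 and 90 cells. In monocytes it was 1.98% (1.59 to 2.46) and 2.43% (2.12 to 3.50) between 2000 and 4000 UMIs, 2.31% and 2.30% between 4000 and 8000, and 2.57% and 2.38% between 8000 and 16000. In DCs it was 2.82% and 2.53% between 4000 and 8000 UMIs, and 2.73% and 2.26% between 8000 and 16000. The intervals overlapped in each of these monocyte and DC windows. Over cells of all depths, the median of macrophages was 1.36 times (1.19 to 1.54) that of monocytes in CD and 1.57 times (1.37 to 1.75) in HFD. It was 0.715 times (0.639 to 0.801) that of alveolar macrophages in CD and 0.868 times (0.753 to 0.981) in HFD. Windows of 1000 to 2000 and of 16000 to 32000 UMIs held fewer than 10 macrophages in each library and were not compared. In CD, macrophages were below alveolar macrophages in each of the other windows. Their CD intervals overlapped between 2000 and 4000 UMIs (1.93 to 3.86 and 2.10 to 7.10). In HFD, macrophages were below alveolar macrophages in only 1 compared window, between 8000 and 16000 UMIs, at 3.74% (3.35 to 4.09) and 4.67% (4.42 to 4.998). In HFD they were above them between 2000 and 4000 UMIs, at 4.99% (3.70 to 7.56) and 0.541% (0.0990 to 2.17). Between 4000 and 8000 UMIs in HFD, the values were 3.21% (2.76 to 3.66) and 3.03% (2.03 to 4.24). The share of cells above 5% was 36.2% in CD and 29.3% in HFD for alveolar macrophages, 7.50% and 6.04% for monocytes, and 8.24% and 11.2% for DCs. Above 10% were 6.48% of alveolar macrophages with CD and 4.14% with HFD, 2.50% and 1.10% of monocytes, and 1.18% and 4.49% of DCs. The intervals of the libraries overlapped for each of these types at both limits. With 1 library per group, the diet and the library itself cannot be told apart.

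**Figure D5:**
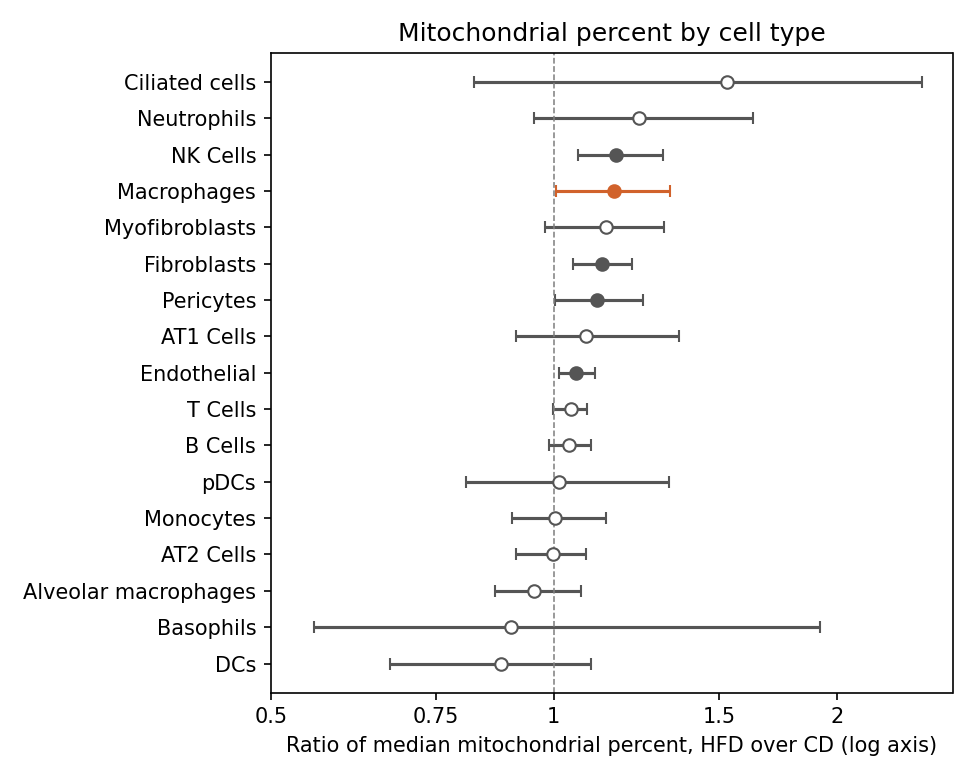
Ratio of the median mitochondrial percent in HFD to that in CD for each of the 17 cell types (log x axis, 1 means no difference), with filled points where the intervals of the libraries are separate and bars from the outer bounds of both 95% median intervals. Macrophages (1.16) rank 4 from the top, whereas alveolar macrophages (0.953) and DCs (0.878) lie below 1 and monocytes at 1.00.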

How the data were processed

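Lungs were perfused, minced, digested with enzymes, strained and freed of red blood cells, and 1 library per diet was sequenced with a target of 10000 cells. The labels and the methods name different kits, for the 3′ and the 5′ end of transcripts respectively. Reads were mapped by the authors to mm10 (GRCm38.p6) in Cell Ranger, and the submitters' processing notes name Seurat 4.1.0. Cells were filtered on mitochondrial content, UMIs and genes, both libraries were merged and clustered together, and clusters were named by hand from marker averages. No doublet removal is stated. The deposited cell table gives raw counts of UMIs and of genes per cell and the percent of UMIs from mitochondrial genes. The lowest UMI count was 1000 in CD and 1001 in HFD.

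Depth was 42470977 UMIs in 8793 CD cells and 50679251 in 9604 HFD cells. Of 27 barcodes found in both libraries, 0 were macrophages and 4 were alveolar macrophages. Shares were given exact (Clopper-Pearson) 95% binomial intervals, ratios of shares and of cell numbers conditional exact intervals, and medians order-statistic intervals, with the outer bounds of both for a ratio of medians. Values of 2 libraries were called separate where these intervals did not overlap. Cells could not be thinned to equal UMIs, so windows of UMIs with at least 10 cells per library were compared instead. Gene positions came from GENCODE for GRCm38. The intervals for shares, for ratios of shares and of cell numbers and for the median of UMIs were tested on simulated data. The bounds for a ratio of medians and the intervals of other percentiles were not tested in this way. No differences between libraries of the same diet were simulated. Intervals were computed with scipy 1.17.1, tables with numpy 2.4.6 and pandas 2.3.3, and plots with matplotlib 3.10.9, all under Python 3.11.15.

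The members and gene lists were chosen with earlier results of these data known. C1qa, C1qb and C1qc were always to be named, other listed genes by their flag, and alveolar macrophages, monocytes and DCs as the types for comparison. The alternatives were limits of 10% mitochondrial UMIs, 2000 and 3000 UMIs and 500 genes, removal of shared barcodes or of the 1% deepest cells, other denominators and equal weights for UMI windows.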

Additional observations from a re-analysis of the deposited data

Results flagged for a closer look

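For a pair of measures, the ratio of HFD to CD lay above 1 in macrophages and below 1 in alveolar macrophages. The difference between these cell types was not tested, since each diet has 1 library. The ratio of the share of all cells was 1.09 (0.860 to 1.40) in macrophages, an interval that contains 1, and 0.831 (0.701 to 0.985) in alveolar macrophages. The intervals of the alveolar macrophage shares overlapped, and the ratio interval also lay below 1 for B cells and endothelial cells. Without endothelial, B and T cells in the total, the ratio of macrophages was 0.953. The ratio of the median mitochondrial percent was 1.16 (1.01 to 1.33) in macrophages and 0.953 (0.866 to 1.07) in alveolar macrophages, where the interval contains 1. With at most 10% mitochondrial UMIs, the ratio of macrophages was 1.11 (0.996 to 1.30), and its interval also contained 1.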

How the results depend on the processing

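For the ratios of HFD to CD, 57 of 58 alternative values stayed within the interval of the value reported. The exception was genes per UMI, whose ratio moved from 0.971 to 1.05 with UMI windows weighted equally, and to 0.983 without the window of 2000 to 4000 UMIs, an alternative chosen after seeing the data. The share ratio ranged from 0.953 to 1.12, the ratio per monocyte from 0.996 to 1.07 and the mitochondrial ratio from 1.10 to 1.30. The alternatives kept most of the same macrophages, and removal of shared barcodes took out none, so the values could move little. Whether the interval contained 1 changed for the mitochondrial ratio at 10% (0.996 to 1.30). It also changed for macrophages per alveolar macrophage at 2000 UMIs (1.01 to 1.87) and at 3000 UMIs (1.002 to 1.89). Leaving out each cluster in turn and equal weights for clusters were not run, because there is 1 cluster. No paired analysis was possible because CD and HFD have 1 library each. The number of macrophages limits the counting precision, so that the interval of the share ratio spans 0.860 to 1.40. Differences between animals come on top of this and could not be estimated.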
